A study of Mus musculus with 16 samples.

Results

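Lung endothelial cells of mice with metastases (time point d36) were compared with those of mice whose primary tumour had recently been resected (d22). All 8 libraries of these 2 groups, of 16 in the series, entered the comparison, 4 per group, assigned by the time point field of the labels. The animals were female C57BL/6N mice that had received Lewis lung carcinoma (LLC) cells, a tumour line from the same strain background, under the skin. Mice of d22 had a removed primary tumour, mice of d36 carried metastases, and levels are also given for mice without a tumour (d0) and with a growing primary tumour (d15), 4 libraries each. For d36 replicate 1 the title says day 29 while the time point field says d36, and the field was followed. Endothelial cells were purified by fluorescence-activated cell sorting, and RNA of each library was sequenced from 10 ng of total RNA. Age, the antibodies and gate of the sort, the hour of collection and the organ sites of the metastases are not given in the sources used here. The series design calls the 4 replicates of a time point independent.

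Endothelial cells line the blood vessels of the lung. Its alveolar capillaries hold general capillary cells, which can divide and renew the bed, and aerocytes, large flat cells specialised for gas exchange. In organs that bear tumours, endothelium is known to meet hypoxia, growth factors, cytokines and leukocytes, and in response it can make chemokines and adhesion molecules. LLC is a fast-growing line that spreads to the lung, so a lung with metastases can hold cancer cells, recruited myeloid cells and fibroblasts beside the vessels.

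The authors deposited RPKM values, which are reads per kilobase of transcript and megaread, for 17715 entries, and levels below are RPKM. Approximate depth was 105.7 to 110.3 M (mega) reads at d22 and 103.2 to 152.1 M at d36, estimated from the step between low RPKM values. The 13622 entries that reached 1 RPKM in 4 or more of the 8 libraries were tested with limma on log2(RPKM + 1), and adjusted p is by Benjamini and Hochberg over all of them. A gene is said to have risen or fallen where adjusted p was under 0.05. Errors of means are SD with n = 4 libraries per group unless said otherwise, errors of log2 fold changes are SE, and values of single libraries are in the order replicate 1, 4, 5 and 6 at d22 and 1, 7, 8 and 9 at d36.

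Replicate 9 of d36 stood apart from the other 3 libraries of its group. On principal component 1, which held 58.6% of the variance, the d22 libraries scored from -30.5 to -18.6, replicates 1, 7 and 8 of d36 scored 32.9, 47.8 and 31.9, and replicate 9 scored -17.7. The scores of replicate 9 thus lay beside those of d22 on the first component and below them, at -26.8, on the second. The SD of a gene was larger at d36 than at d22 for 10104 of 13622 entries (74.2%), and for 7756 (56.9%) without replicate 9. Results are therefore given with and without this library where it decides them.

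**Figure D1:**
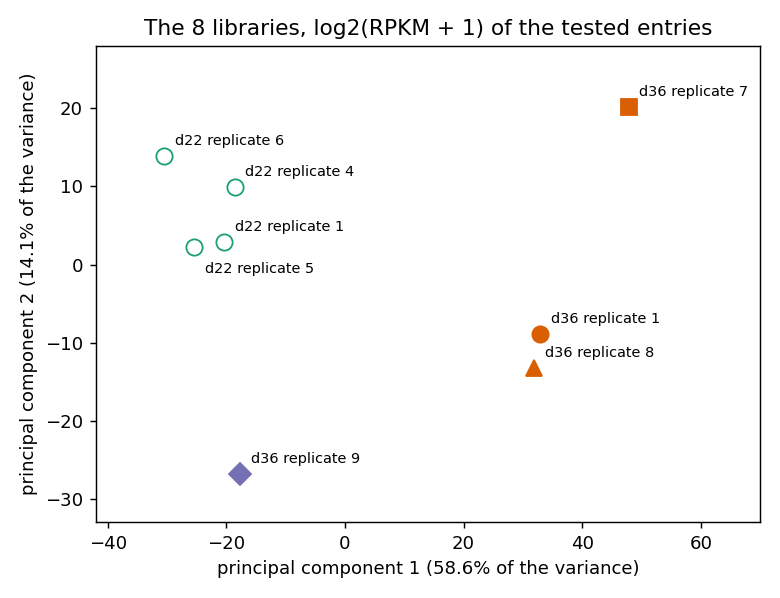
Scores of the 8 libraries on principal components 1 and 2 of log2(RPKM + 1) over the tested entries, with the share of variance on each axis. Open circles are d22, filled orange symbols are d36 replicates 1, 7 and 8, and the diamond is d36 replicate 9, which lies on the d22 side of component 1 at -17.7.

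More entries rose than fell at d36. In all 374 rose (2.75% of those tested) and 65 fell (0.477%), and 137 of the rises but 3 of the falls were at least 2-fold. At unadjusted p under 0.05, 16% of tested entries lay upward and 7.83% downward. A gene under 1 RPKM in every d22 library could enter the test only by being high throughout d36: 71 entries did so, 53 of which rose, and such members are counted apart in the lists below. A gene at 1 RPKM in only some d22 libraries also needed d36 to enter, and such genes stay among the others. The counts of the others are therefore not free of the filter. With the median of each library set equal the split was 236 rises and 169 falls, and with quantile normalization it was 268 and 199. Every d36 library was above every d22 library for 1330 entries (9.76%) and below for 569 (4.18%). Without replicate 9 of d36 limma called 2045 rises (15%) and 1131 falls (8.3%), which included all 374 and all 65. These shares over all tested entries are the reference for the counts of each list below. Leaving out any other library, of d22 or of d36, left 5 to 31 rises and at most 1 fall.

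Of the 65 genes that passed and were named by the rule given with the processing, 62 lost the call in at least 1 of the 8 fits that left out 1 library, with a largest adjusted p of 0.0695 to 0.14. The 3 that passed in every such fit were Nr1d1, Nr1d2 and Chi3l3. Of these, Nr1d2 and Chi3l3 were under 1 RPKM in every d22 library, so they entered the test only through d36. None of the 65 lost the call when replicate 9 of d36 was left out. Replicate 9 was still above all d22 libraries for 908 of the 2045 rises called without it (44.4%), inside the d22 range for 786 and below it for 351. In RPKM, its signed difference from the d22 mean was, at the median, 10.1% of that of the mean of the other 3 libraries. Choosing the rises on those 3 libraries can itself lower this share.

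The largest rise was that of Rhox5. This gene, an X-linked homeobox gene of the reproductive tract that many tumour lines express, was at 0.321, 0, 0.721 and 0.63 RPKM at d22 and at 148, 97.8, 91.6 and 11.1 at d36. The 2 groups were far apart, with replicate 9 between them. Its mean went from 0.418 ± 0.327 to 87.0 ± 56.5 RPKM, a log2 fold change of 5.52 ± 0.65 (limma, adjusted p = 0.0119). The gene is annotated as protein coding at chrX:37754608-37808878 (mm10). At d0 and d15 Rhox5 averaged 0.103 ± 0.0804 and 0.163 ± 0.184 RPKM, so the rise was against a level near 0 at each earlier time.

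Lgals1, which codes for galectin-1, a secreted lectin that binds glycans on vessels and T cells, was at 5.38, 5.82, 3.79 and 4.6 RPKM at d22 and 539, 515, 363 and 31.1 at d36. Every d36 library lay above d22, with replicate 9 nearest to it, and the log2 fold change was 5.35 ± 0.76 (limma, adjusted p = 0.0194). The gene spans chr15:78926725-78930465 (mm10). S100a4, a calcium-binding protein of motile cells, was at 0.259, 0.322, 0.168 and 0.472 RPKM at d22 against 53.9, 92.8, 34.1 and 3.6 at d36 (log2 fold change 4.54 ± 0.74, adjusted p = 0.0279). Its relative S100a6 went from 13.7 ± 3.14 to 347 ± 221 RPKM (4.10 ± 0.67, adjusted p = 0.0279). Hmga1, a chromatin protein of proliferating and embryonic cells, was at 1.68, 1.75, 1.12 and 1.7 RPKM at d22 and 98.1, 65.7, 60.3 and 4.72 at d36 (3.94 ± 0.73, adjusted p = 0.0317). In each of these 4 genes the order of the libraries was alike: replicates 1, 7 and 8 high, replicate 9 lower and still above d22.

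A list of 25 genes that carcinoma cells often express gave 11 tested members, of which 6 rose and none fell, with a median log2 fold change of 3.28 beside 0.04 over all tested entries. Rhox5 and S100a4 were tested only through d36, and of the 9 others 4 rose, with a median of 2.98. The list was chosen with earlier results of these data known, so its count and median are no independent measure. The epithelial keratin Krt18 was among the rises (3.28, adjusted p = 0.0365), and Ceacam1, which endothelium also makes, was at 38.2 RPKM at d22 with a log2 fold change of -0.12 (adjusted p = 0.588). Lgals1, S100a4 and S100a6 also belong to the matricellular list below. The list summed to 64.9 to 75.3 RPKM in the d22 libraries and to 1533, 1485, 1020 and 141 in d36 replicates 1, 7, 8 and 9. Members under the filter on low values moved in the same libraries: Hmga2, an embryonic chromatin protein, was at 8.48, 6.83, 7.96 and 0.268 RPKM at d36 and at most 0.0663 at d22. The epithelial adhesion gene Epcam was near 0 in all 8 libraries, at most 0.174 RPKM. Whether RNA of cancer cells entered the sorted samples was not tested, and in bulk RNA more cells of a type and more RNA per cell cannot be told apart.

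The other genes among the 12 largest rises code for secreted or membrane proteins. Pla2g7, a secreted enzyme that breaks down platelet-activating factor, was at 0.522, 0.407, 0.148 and 0.609 RPKM at d22 and 50, 36, 44.5 and 6.38 at d36 (log2 fold change 4.32 ± 0.52, limma, adjusted p = 0.0119). Serpinf1, the gene of pigment epithelium-derived factor, an inhibitor of vessel growth, was at 0.887, 0.398, 0.442 and 0.47 RPKM at d22 and 50.7, 54.1, 50.2 and 3.01 at d36 (4.17 ± 0.73, adjusted p = 0.03). The 3 high d36 libraries were nearly equal for Serpinf1, and replicate 9 lay just above d22. Pcolce, which assists the maturation of fibrillar collagen, rose by 4.06 ± 0.77 (adjusted p = 0.0321), and Lgals3, which codes for galectin-3, by 3.82 ± 0.68 (adjusted p = 0.0307). Mela, a melanoma antigen derived from an endogenous retrovirus, rose by 3.88 ± 0.68 (adjusted p = 0.0307), though its reads can come from several near-identical copies. Pla2g7, Serpinf1 and Mela were under 1 RPKM in every d22 library, so they were tested only through d36. When libraries other than replicate 9 of d36 were left out, the adjusted p of the 12 largest rises reached at most 0.111.

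**Figure D2:**
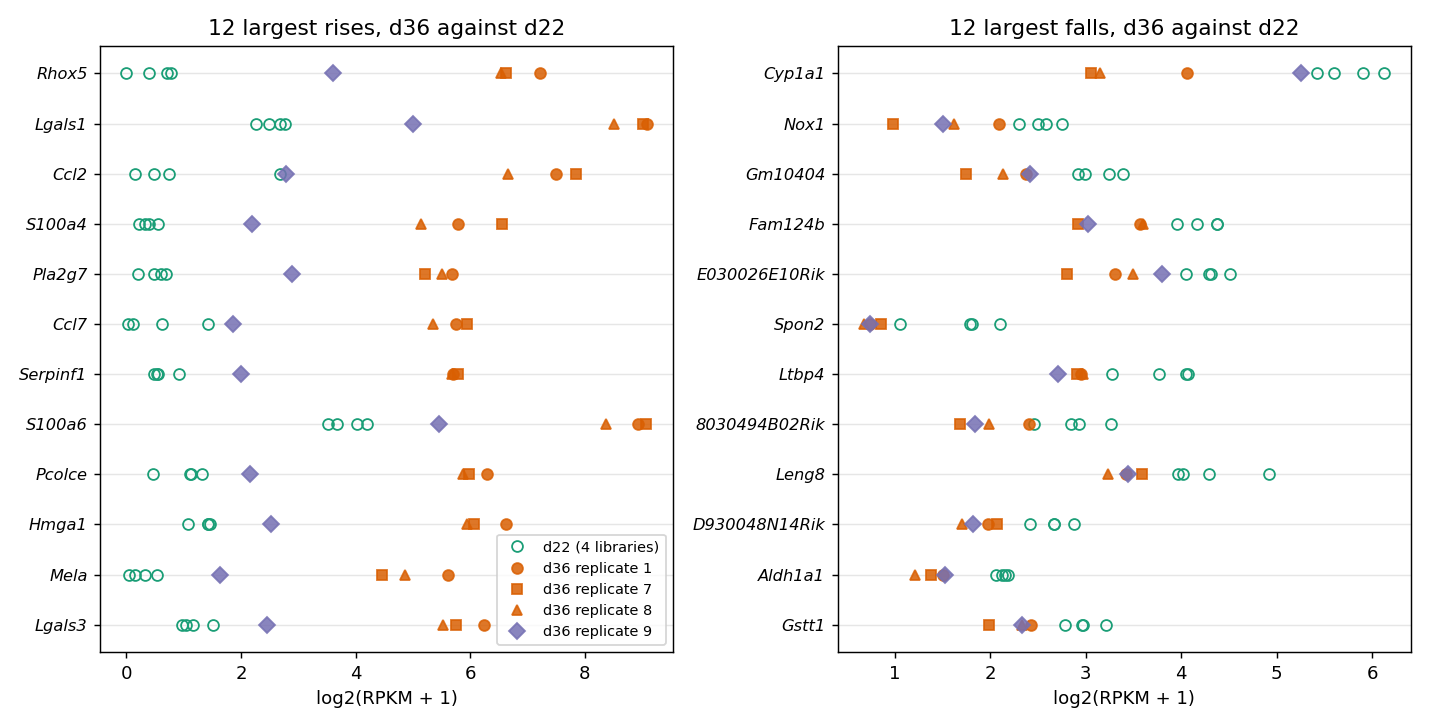
Level of the 12 largest rises (left) and the 12 largest falls (right) on the log2(RPKM + 1) scale, with 1 point per library. In the rises d36 replicate 9 (diamond) lies between the d22 libraries (open circles) and the other 3 d36 libraries, while in most of the falls it lies among the other d36 libraries.

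Genes of macrophages and other leukocytes rose as well, from low levels. Of 10 tested macrophage and monocyte genes 7 rose and none fell. Since 6 of these 7 were under 1 RPKM in every d22 library, and so were tested only through d36, this count is no measure of the list; of the 4 others 1 rose, with a median log2 fold change of 1.04. Chi3l3, the chitinase-like lectin Ym1 of lung macrophages, had the smallest p of all entries named here but was among those tested only through d36. It was at 0.0531, 0.163, 0.214 and 0.782 RPKM at d22 and 4.8, 5.58, 6.79 and 4.84 at d36. All 4 libraries of d36 were high, replicate 9 included, and the log2 fold change was 2.34 ± 0.18 (limma, adjusted p = 0.000774, and at most 0.00901 with any library left out). The gene lies at chr3:106147554-106167564 (mm10), and a close relative of it may share reads.

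Cd68, an endosomal protein of macrophages, was at 0.996, 0.881, 1.41 and 1.35 RPKM at d22 and 8.36, 9.19, 9.77 and 3.85 at d36 (log2 fold change 1.97 ± 0.24, adjusted p = 0.0119). Marco, a scavenger receptor of alveolar macrophages, was listed at 0 in all d22 libraries and at 1.83, 8.13, 6.67 and 2.21 RPKM at d36 (adjusted p = 0.0225). Cd68 separated the groups without overlap, and replicates 7 and 8 were the highest for both genes. Itgam, an integrin chain of myeloid cells, rose by 1.43 ± 0.23 (adjusted p = 0.0264), and the complement gene C1qb by 2.50 (adjusted p = 0.0422). Marco, Itgam and C1qb were tested only through d36, so the filter alone fixed their lack of overlap. Lyz2, the lysozyme of macrophages and alveolar type 2 cells, was already at 34.6 RPKM at d22 and did not pass (0.90, adjusted p = 0.193). Without single libraries other than replicate 9, adjusted p reached 0.0695 for Cd68, 0.102 for Marco and 0.105 for Itgam.

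Of 8 tested pan-leukocyte genes 3 rose and none fell, all 3 among the 4 that were tested only through d36. The median log2 fold change of the 4 others, none of which passed, was 0.64. Tyrobp, an adaptor of myeloid and natural killer cell receptors, was at 0.0487, 0.532, 0.147 and 0.462 RPKM at d22 and 3.49, 14.1, 19.3 and 1.97 at d36 (log2 fold change 2.64 ± 0.54, limma, adjusted p = 0.0356). Its partner chain Fcer1g rose by 2.34 ± 0.49 (adjusted p = 0.0381) and the surface glycoprotein Cd52 by 1.78 ± 0.33 (adjusted p = 0.0315). For all 3, replicates 7 and 8 were well above replicates 1 and 9, and the largest adjusted p without a single library was 0.105 to 0.117. The pan-leukocyte list summed to 56.67 to 69.95 RPKM at d22 and 82.0, 131.8, 193.7 and 74.7 at d36.

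Lymphoid and granulocyte markers were uneven among the d36 libraries. Ighm, the immunoglobulin heavy chain mu of B cells, was at 0, 0.642, 0.574 and 2.32 RPKM at d22 and 5.6, 0.998, 23.9 and 6.93 at d36, so the groups overlapped (log2 fold change 2.06 ± 0.65, limma, adjusted p = 0.0949). Of the 3 tested B cell genes none passed, though all 3 had unadjusted p under 0.05, upward, beside 16% of all tested entries. Neutrophil genes were mostly under the filter on low values: the alarmin S100a8 was at 1.05, 18.2, 9.59 and 0.061 RPKM at d36 and at most 0.0469 at d22, and S100a9 was at 0.485, 18.4, 10.9 and 0.0323. The 1 tested neutrophil gene, Ltf, had a log2 fold change of -0.25 ± 0.23 (adjusted p = 0.535). Gzmb, a protease of cytotoxic lymphocytes, was at 0.209, 4.74, 9.85 and 1.08 RPKM at d36 and at most 0.127 at d22, under the filter. Replicates 7 and 8 thus held the most granulocyte and cytotoxic transcripts, and replicate 8 the most B cell transcripts.

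Chemokines, the secreted attractants of leukocytes, rose in part. Of 13 tested chemokine genes and scavenger receptors 5 rose and none fell, with a median log2 fold change of 0.71, and 0.39 without d36 replicate 7. Cxcl2 and Ccl9 were tested only through d36, and of the 11 others 3 rose, with a median of 0.43. Ccl2 and Ccl7 are among the 11, but at d22 they reached 1 RPKM in replicate 1 alone, so they too entered mainly through d36. Ccl2, the attractant of monocytes, and its neighbour Ccl7 act through the receptor CCR2, while Cxcl1 and Cxcl2 attract neutrophils through CXCR2. The nuclear factor NF-kB is known to drive both pairs. The 250 bases before the start sites of Cxcl2 and Cxcl1 are shown because both genes rose together and each holds 2 matches (in capitals) to GGNNTTTCC, a 9-letter form of the NF-kB motif read on both strands. In Cxcl2 (chr5:90903649-90903898, plus strand) they begin 96 and 77 bases before the start, and in Cxcl1 (chr5:90890995-90891244, plus strand) 89 and 70. Of 32817 promoter windows of this length, 1618 (4.93%) hold such a match, and a match is a description of the letters alone. Sequences are from RefSeq, build GRCm38.p6.
Cxcl2: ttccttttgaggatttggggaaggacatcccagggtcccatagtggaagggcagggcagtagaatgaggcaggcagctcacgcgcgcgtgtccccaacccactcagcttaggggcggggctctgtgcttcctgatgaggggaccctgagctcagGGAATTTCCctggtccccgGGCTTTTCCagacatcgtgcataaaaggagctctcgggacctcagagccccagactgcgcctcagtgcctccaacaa
Cxcl1: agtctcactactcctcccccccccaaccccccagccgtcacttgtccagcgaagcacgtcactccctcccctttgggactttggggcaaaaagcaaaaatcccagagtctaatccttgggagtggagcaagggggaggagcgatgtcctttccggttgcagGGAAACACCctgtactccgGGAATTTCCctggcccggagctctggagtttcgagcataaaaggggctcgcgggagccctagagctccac

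Ccl2 was at 5.45, 0.117, 0.404 and 0.675 RPKM at d22 and 180, 230, 100 and 5.87 at d36 (log2 fold change 5.18 ± 1.01, limma, adjusted p = 0.0333). Replicate 9 of d36 narrowly exceeded d22 replicate 1, and the other 3 were far above. Ccl7 was at 1.69, 0.0827, 0.0232 and 0.532 RPKM at d22 and 53.0, 60.8, 39.9 and 2.62 at d36 (4.18 ± 0.79, adjusted p = 0.0321). The 2 genes are adjacent on chromosome 11, at chr11:82035577-82037452 and chr11:82045712-82047525 (mm10). Cxcl2 was at 0.597, 0.946, 0.113 and 0.321 RPKM at d22 and 19.3, 48.1, 32.0 and 3.21 at d36 (3.72 ± 0.62, adjusted p = 0.0292).

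Cxcl1 rose by 4.78 (adjusted p = 0.0411), from 3.05 RPKM on average to 236, 406, 121 and 6.79, and replicate 9 lay within the d22 range. Ccl9, a macrophage-derived attractant, rose by 2.23 ± 0.45 (adjusted p = 0.0352) and was highest in replicate 8 at 12.4 RPKM. Cxcl12, the homeostatic chemokine of endothelium and stroma, went the other way, from 76.2 ± 11.3 to 52.5 ± 6.26 RPKM with no overlap, and missed the threshold (-0.52 ± 0.14, adjusted p = 0.0626). Adjusted p of the named chemokines that passed reached 0.105 to 0.124 without a single library. At d36 the carcinoma-associated list was highest in replicates 1, 7 and 8 and the pan-leukocyte list in replicates 7 and 8, and their part in these rises was not tested.

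Of 20 tested genes of the NF-kB pathway none passed, and 5 had unadjusted p under 0.05, all upward, beside 16% of all tested entries. Without replicate 9, 9 rose. Nfkbiz, an inducible regulator of this pathway, was at 11.9, 13.8, 8.12 and 11 RPKM at d22 and 56.2, 108, 46.6 and 12.6 at d36, and replicate 9 lay within the d22 range (log2 fold change 1.90 ± 0.51, limma, adjusted p = 0.065, and 0.000225 without replicate 9). Tnfaip3, which ends the signal, was at 7.09, 18.4, 4.98 and 0.804 RPKM at d36 (1.5, adjusted p = 0.143), and the subunit gene Rela had a log2 fold change of 0.08 (adjusted p = 0.66).

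In the list of STAT3 targets and acute-phase genes 1 of 17 rose and none fell, and the median was 0.60 over the 16 others, and 0.39 over all 17 without d36 replicate 7. The riser was Saa3, serum amyloid A3, an acute-phase lipoprotein made outside the liver. It was listed at 0 in all d22 libraries and at 2.75, 4.57, 12.9 and 4.66 RPKM at d36 (limma, adjusted p = 0.0119, and at most 0.0714 with a library left out). Replicate 9 was the second highest library for Saa3. Junb and Socs3, fast targets of cytokine signals, were highest in replicate 7, at 827 and 143 RPKM, and lower in replicate 9, at 39.1 and 3.66 (adjusted p = 0.272 and 0.312).

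Lrg1, a secreted glycoprotein of this list that modulates TGF-beta signalling in vessels, was at 67.2, 112, 57.6 and 64.8 RPKM at d22 and at 104, 499, 170 and 48.8 at d36. The groups overlapped, and replicate 9 was the lowest of all 8 libraries. The mean was 75.3 ± 24.6 RPKM at d22 and 205 ± 202 at d36, a log2 fold change of 0.98 ± 0.57 (limma, adjusted p = 0.319), and 1.49 without replicate 9 (adjusted p = 0.0357).

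Of 21 tested matricellular and mesenchymal genes 8 rose and none fell. S100a4 and Fn1 were tested only through d36, and of the 19 others 6 rose, with a median log2 fold change of 0.43. Beside Lgals1, Lgals3, S100a4 and S100a6 these were Anxa1 (3.51), Tgfbi (2.47), Fn1 (2.01) and the transcription factor Snai1 (1.66). Fn1, the gene of the matrix glycoprotein fibronectin, was at 0.248, 0.151, 0.106 and 0.106 RPKM at d22 and 5.76, 4.12, 5.27 and 1.10 at d36 (2.01 ± 0.31, limma, adjusted p = 0.0264, and at most 0.105 with a library left out). Other classical mesenchymal genes did not pass: Sparc had a log2 fold change of 0.00, Tagln of -0.45 ± 0.24 and Bgn of -0.66 (adjusted p = 0.986, 0.282 and 0.0849).

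The summed level of fibroblast genes was high in replicates 1, 7 and 8 and not in replicate 9. Lum, the proteoglycan lumican of fibroblasts, was at 0.63, 0.956, 0.808 and 1.15 RPKM at d22 and 22.8, 11.8, 26.7 and 1.01 at d36 (log2 fold change 2.60 ± 0.68, limma, adjusted p = 0.0622). None of 4 tested fibroblast genes passed, with 3 log2 fold changes positive, 1 negative (-0.20) and a median of 0.84. Of the 4, 2 had unadjusted p under 0.05, upward, beside 16% of all tested entries, and 2 rose without replicate 9. The fibroblast list summed to 11.5 to 39.4 RPKM at d22 and 88.5, 75.6, 91.4 and 26.0 at d36, and its part in the rises of matricellular genes was not tested. Col6a1, a chain of collagen VI, was at 0.518, 2.28, 0.696 and 1.51 RPKM at d22 and 23.3, 43.2, 14.3 and 1.04 at d36 (2.66 ± 0.78, adjusted p = 0.0801). Of the 17 tested collagen, laminin and integrin genes none passed with all 8 libraries, and 4 had unadjusted p under 0.05 upward and 2 downward, beside 16% and 7.83% of all tested entries.

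Among 14 proteases and inhibitors 2 rose and none fell (median 0.39, and 0.62 without d36 replicate 9). Plau, the urokinase that activates plasmin, was at 1.71, 0.977, 1.3 and 0.584 RPKM at d22 and 6.72, 4.44, 7.08 and 4.0 at d36 (log2 fold change 1.61 ± 0.21, limma, adjusted p = 0.015). All 4 libraries of d36 lay above d22, replicate 9 included, and adjusted p was at most 0.0714 with a library left out.

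In the TGF-beta and BMP list 2 of 21 genes rose and none fell, with a median log2 fold change of -0.01. The ligand Tgfb3 was at 0.494, 1.0, 0.965 and 0.67 RPKM at d22 and 5.14, 5.04, 5.08 and 1.15 at d36 (1.41 ± 0.31, limma, adjusted p = 0.045). Replicates 1, 7 and 8 were nearly equal for Tgfb3, and replicate 9 lay just above d22. The receptors Tgfbr2, Eng and Bmpr2 and the targets Id1 and Id3 had log2 fold changes from -0.17 to -0.01 with adjusted p of 0.528 or more. Without single libraries other than replicate 9, adjusted p reached 0.132 for Tgfb3.

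Genes of dividing cells were higher at d36 in 3 of the 4 libraries. Of 20 tested mitosis genes 3 rose, none fell and all 20 had positive log2 fold changes, with a median of 1.66. Top2a, the topoisomerase that untangles chromosomes, was at 2.7, 0.625, 0.95 and 0.327 RPKM at d22 and 19.6, 12.1, 15.6 and 2.68 at d36 (2.51 ± 0.51, limma, adjusted p = 0.0349). Replicate 9 was as high as d22 replicate 1, the highest of d22. Mad2l1, of the spindle checkpoint, was at 2.77, 2.6, 2.18 and 1.61 RPKM at d22 and 11.9, 7.69, 9.99 and 4.08 at d36 (1.45 ± 0.26, adjusted p = 0.031), and Cenpa, the histone of the centromere, rose by 1.31 ± 0.28 (adjusted p = 0.0422). Without replicate 9, 18 of the 20 rose, and without another library the adjusted p of these 3 reached 0.11 to 0.128.

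DNA replication genes gave a smaller shift. All 31 tested members had positive log2 fold changes, with a median of 0.62. Without replicate 9, 25 rose, beside 15% of all tested entries. With all 8 libraries 1 rose, none fell and 22 had unadjusted p under 0.05, upward, beside 16% of all tested entries. The riser was Pcna, the clamp of the replication fork, at 12.6, 11.5, 10.2 and 9.55 RPKM at d22 and 16.1, 18.6, 16.6 and 15 at d36. Its d36 libraries all lay above d22, replicate 9 included (0.56 ± 0.12, limma, adjusted p = 0.04, and at most 0.123 with a library left out). The mean of the list on the log2(RPKM + 1) scale was 2.53, 2.20, 2.21 and 1.94 at d22 and 3.30, 3.02, 3.09 and 2.25 at d36, so replicate 1 was the highest and replicate 9 the lowest of d36. The carcinoma-associated list (1533, 1485, 1020 and 141 RPKM in sum at d36) had the same highest and lowest library, and its part in the growth genes was not tested.

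Many genes of cytosolic ribosomal proteins rose. Of 30 tested members 14 rose, beside 2.75% of all tested entries, and none fell. For 25 members every d36 library lay above every d22 library, beside 9.76% of all tested entries. The median log2 fold change of the list was 0.74. One of the 14 was tested only through d36. Rps19, of the small subunit, was at 18.2, 19.8, 16.8 and 12.7 RPKM at d22 and 27.8, 33.0, 29.3 and 29.7 at d36 (0.81 ± 0.14, limma, adjusted p = 0.0293). Replicate 9 was as high as the other 3 libraries for this gene. Rpl5, which also stabilises p53, was at 70.7, 80.1, 66.7 and 59.8 RPKM at d22 and 139, 143, 125 and 98.2 at d36 (0.85 ± 0.15, adjusted p = 0.0296). Rpl13 rose by 1.06 ± 0.19 and Rps12 by 0.63 ± 0.12 (adjusted p = 0.0307 and 0.0317). With the medians of the libraries set equal 6 of the 30 rose, and the list's median was 0.65. The part of the carcinoma-associated list, which was also high in replicates 1, 7 and 8, was not tested. Ribosomal protein genes have many processed copies in the genome, so the counting could have split their reads, and the largest adjusted p of these 4 genes without a library was 0.105 to 0.11.

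In the hypoxia and glycolysis list 5 of 27 genes rose and none fell, with a median log2 fold change of 0.79. Adm, the gene of adrenomedullin, a vasodilator peptide and a target of hypoxia-inducible factor, was at 0.896, 1.0, 0.545 and 0.827 RPKM at d22 and 25.4, 21.5, 32.4 and 2.09 at d36. Replicate 9 was just above d22 and the other 3 far above (log2 fold change 3.12 ± 0.62, limma, adjusted p = 0.0338). Bnip3, a mitochondrial protein induced by hypoxia, was at 10.7, 13.1, 11.9 and 8.16 RPKM at d22 and 29.7, 28.9, 27.4 and 18.4 at d36 (1.17 ± 0.18, adjusted p = 0.0264). Pfkfb3, which speeds glycolysis in sprouting endothelium, was at 9.22, 8.27, 10.2 and 5.42 RPKM at d22 and 14.9, 15.1, 17.4 and 14.2 at d36 (0.85 ± 0.17, adjusted p = 0.0338). Its mean was 14.1 ± 3.95 RPKM at d0 and 21.9 ± 10.5 at d15, beside 8.28 at d22 and 15.4 at d36. For Pfkfb3 d22 was thus the low time point, and d36 lay near mice without a tumour. Adm and Bnip3 averaged 0.941 and 9.71 RPKM at d0, near their levels at d22.

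The glycolytic enzyme genes Tpi1 and Pgk1 rose by 1.32 ± 0.28 and 1.17 (limma, adjusted p = 0.0381 and 0.041). Other enzymes of the pathway were just outside: Eno1 (1.53, adjusted p = 0.0502), Pkm (1.54, adjusted p = 0.0521) and Ldha (1.31, adjusted p = 0.068). For Ldha replicate 9 was at 40 RPKM beside 37.4 to 41.9 at d22, and the other 3 were at 172, 120 and 116. Egln1 and Vegfa, which hypoxia can also induce, had log2 fold changes of 0.03 and 0.12 (adjusted p = 0.926 and 0.785). The adjusted p of the named hypoxia genes reached 0.102 to 0.126 without a single library, and 18 of the 27 rose without replicate 9. In the fit of all 16 libraries Pfkfb3 missed the threshold (adjusted p = 0.0661). The list summed to 2181, 2027, 1943 and 1001 RPKM at d36 beside 1533, 1485, 1020 and 141 for the carcinoma-associated list, whose part in the result was not tested.

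Other metabolic lists moved less. Of 28 tested oxidative phosphorylation genes 1 rose and none fell, and all 28 had positive values (median 0.27). The list summed to 2453 to 2616 RPKM at d0, 1665 to 2107 at d22 and 2257 to 2594 at d36, so d22 was below d0 and d36 near it. The median was 0.09 after quantile normalization and 0.10 with the trend of length and GC content removed. The riser was Cox6c, a subunit of cytochrome c oxidase, at 21.1, 23.1, 22.4 and 21.0 RPKM at d22 and 29.4, 29.9, 28.8 and 28.8 at d36, with no overlap and little spread in either group (0.40 ± 0.09, limma, adjusted p = 0.0452). Cox6c missed the threshold in the fit of all 16 libraries (adjusted p = 0.053). None of 27 proteasome genes passed, and 13 had unadjusted p under 0.05, upward, beside 16% of all tested entries. The median of the 27 genes, 0.28, became 0.09 and 0.08 under the same alternatives. Their sum was 1306 to 1487 RPKM at d0, 919.6 to 1150 at d22 and 1242 to 1398 at d36, again with d36 near d0. The smallest p among them was that of Psmb7 (0.40 ± 0.12, adjusted p = 0.0801). Ssr3, of the translocon of the endoplasmic reticulum, was the 1 riser of 27 folding and stress genes (0.43 ± 0.10, adjusted p = 0.0452). Without a single library the adjusted p of Cox6c reached 0.13 and that of Ssr3 0.124.

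Slc27a1, a fatty acid transport protein, was the 1 riser of 10 genes of fatty acid uptake, of which none fell, and was tested only through d36. It went from 0.579 ± 0.185 to 3.70 ± 1.70 RPKM (log2 fold change 1.48 ± 0.28, limma, adjusted p = 0.0325). Of 5 tested amino acid transporter genes none passed and 1 had unadjusted p under 0.05: Slc1a5, which carries glutamine, at 7.95, 7.54, 4.96 and 0.84 RPKM at d36 beside 0.61 to 2.08 at d22 (1.27 ± 0.45, adjusted p = 0.127). Adjusted p reached 0.11 for Slc27a1 without a library.

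Stress genes rose in part. The metal-binding metallothioneins Mt1 and Mt2 were the 2 risers of 11 genes of oxidative stress and metals (median 0.67). Mt1 was at 4.36, 6.34, 3.83 and 3.35 RPKM at d22 and 181, 92.8, 104 and 12.2 at d36 (log2 fold change 3.70 ± 0.66, limma, adjusted p = 0.0307). Mt2 was at 1.27, 0.713, 0.604 and 0.824 RPKM at d22 and 56.5, 34.4, 40 and 2.6 at d36 (3.67 ± 0.72, adjusted p = 0.0333). Both were lowest in replicate 9 among the d36 libraries and still above d22 there. Mt2 was also the 1 riser of 10 genes that glucocorticoids induce, whose members Tsc22d3 and Sgk1 had log2 fold changes of -0.34 and -0.08 (adjusted p = 0.503 and 0.817).

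Of 13 heat shock genes 2 rose and none fell (median 0.69, and 1.05 without d36 replicate 9): the chaperones Hsp90aa1 (1.14 ± 0.23, limma, adjusted p = 0.0338) and Hspe1 (1.18 ± 0.25, adjusted p = 0.039). Immediate early genes respond to stimuli within minutes and also to tissue dissociation. Of 20 tested 1 rose, none fell and 12 had unadjusted p under 0.05, upward, beside 16% of all tested entries. The list's median was 1.02, and 0.63 without d36 replicate 7. The riser was Fosl1, an AP-1 subunit common in invasive tumour cells, at 1.31, 0.86, 0.611 and 1.4 RPKM at d22 and 35.3, 31.8, 17.5 and 1.8 at d36 (2.96 ± 0.68, adjusted p = 0.0471). Myc was at 230, 136 and 108 RPKM in replicates 1, 7 and 8 and 4.68 in replicate 9 (3.77, adjusted p = 0.0568). Fos and Egr1 were highest in replicate 7, at 378 and 179 RPKM, and did not pass (adjusted p = 0.0607 and 0.063). The largest adjusted p without a library was 0.11 to 0.132 for the named stress genes. Heat shock genes summed to 1574, 1561, 1204 and 633 RPKM at d36, in the same order of libraries as the carcinoma-associated list, whose part in the stress genes was not tested.

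**Figure D3:**
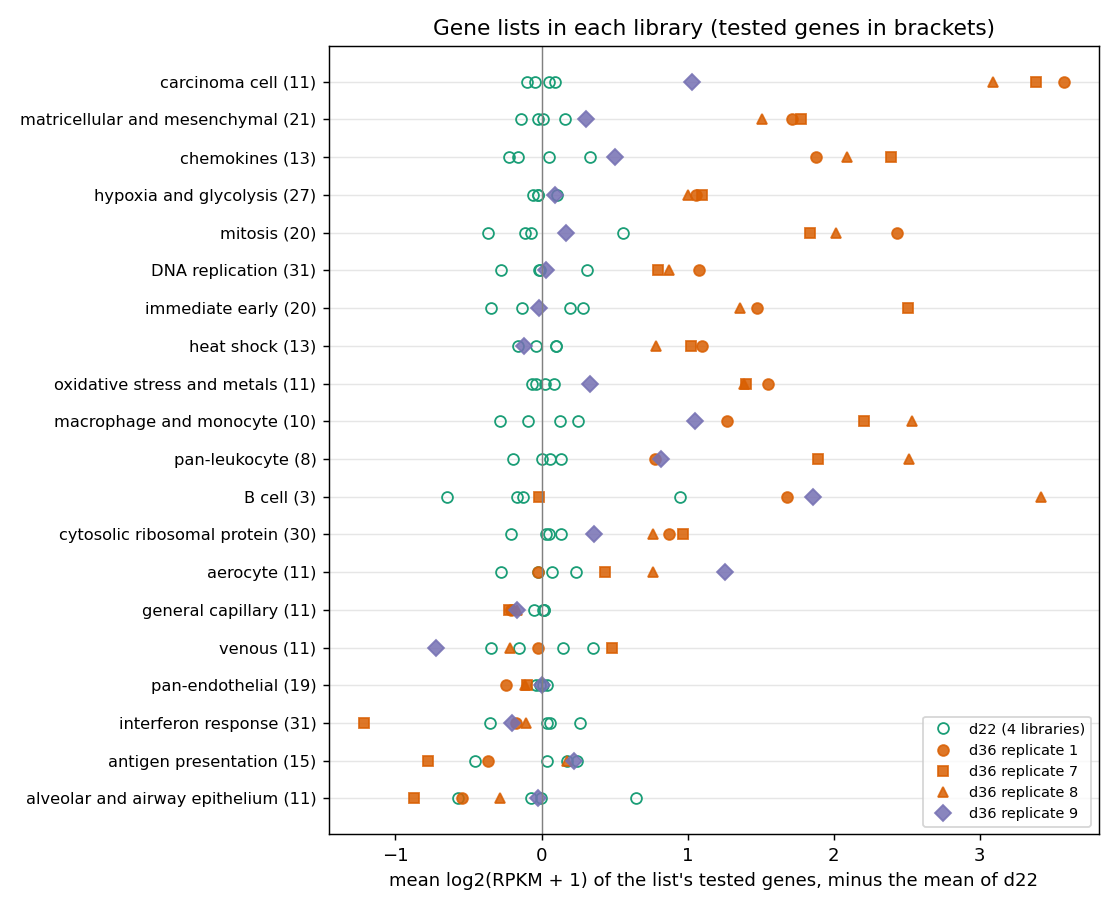
Mean log2(RPKM + 1) of the tested genes of 20 lists in each of the 8 libraries, minus the mean of the d22 libraries, with the number of genes in brackets. Replicate 9 of d36 (diamond) lies at or near d22 (open circles) for hypoxia, DNA replication and heat shock genes, above d22 for leukocyte lists, and above every library for aerocyte genes.

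Pan-endothelial genes were high in both groups, as the label of the samples says. Of 19 tested pan-endothelial genes 1 fell and none rose, and the list mean on the log2(RPKM + 1) scale was 7.07, 7.15, 7.10 and 7.12 at d22 and 6.87, 7.01, 7.00 and 7.11 at d36. Pecam1, the junction protein CD31, was at 687 ± 89.0 RPKM at d22 and 626 ± 48.0 at d36 (-0.13 ± 0.14, limma, adjusted p = 0.604). Tie1, an orphan receptor that modulates angiopoietin signals, was the faller, at 377, 390, 392 and 431 RPKM at d22 and 299, 235, 286 and 284 at d36. All d36 libraries were below all d22 libraries (-0.53 ± 0.12, adjusted p = 0.0473, and at most 0.128 with a library left out). Its partner Tek, the angiopoietin receptor, had a log2 fold change of -0.30 (adjusted p = 0.184).

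Genes of general capillary cells gave no call. Of 11 tested none passed, 5 had unadjusted p under 0.05, downward, beside 7.83% of all tested entries, and the median log2 fold change was -0.28. Cxcl12, Ptprb, Glp1r and Cd93 had every d36 library below every d22 library, as did 4.18% of all tested entries. Ptprb, a phosphatase of the junction, went from 72.9 RPKM on average to 61.0, 52.0, 51.3 and 59.0 (-0.38, limma, adjusted p = 0.0849). Of 14 tested junction genes none passed, 3 had unadjusted p under 0.05, downward, and the smallest p was that of the adaptor Mllt4 (afadin), at 0.742, 0.728, 0.776 and 1.22 RPKM at d36 beside 1.21 to 1.47 at d22 (-0.33 ± 0.12, adjusted p = 0.127). The junction proteins Cldn5 and Cdh5 had log2 fold changes of -0.04 and -0.17 (adjusted p = 0.918 and 0.487).

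Replicate 9 of d36 was the highest of the 8 libraries for aerocyte genes. Of 11 tested none passed, and 6 had unadjusted p under 0.05, upward, beside 16% of all tested entries. The median log2 fold change was 0.60, and 0.95 without d36 replicate 1. In the fit of all 16 libraries 3 rose. Chst1, a sulfotransferase, was at 5.28, 4.85, 3.96 and 3.83 RPKM at d22 and 5.13, 10.2, 11.4 and 17.6 at d36 (1.04 ± 0.28, limma, adjusted p = 0.0672, and 0.0306 without replicate 9). Replicate 1 lay within d22, and the other 3 were higher. Ednrb, the endothelin receptor B that marks aerocytes, was at 41.4, 51.4, 75.3 and 119 RPKM at d36 beside 33.2 ± 10.5 at d22 (1.02, adjusted p = 0.0941). At d0 its level was 87.5 RPKM and that of Chst1 15 ± 4.18, so replicate 9 of d36 was above the mean of mice without a tumour. The summed level of the list was 298 to 404 RPKM at d22, 329, 455, 513 and 728 at d36 and 521 to 879 at d0.

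Venous genes gave no call among 11 tested, with 3 at unadjusted p under 0.05, downward, beside 7.83% of all tested entries. Their median was -0.16, and -0.26 to -0.01 with a library left out, the latter without d36 replicate 9. Ephb4, the venous receptor of ephrin B2, was at 51.4, 54.8, 53.1 and 50.4 RPKM at d22 and 35.1, 41.1, 43.3 and 40.5 at d36, without overlap (log2 fold change -0.39 ± 0.10, limma, adjusted p = 0.0622). Selp, the P-selectin that captures leukocytes, was at 9.33, 15.5, 4.88 and 3.17 RPKM at d36 and 4.53 ± 2.20 at d22 (0.63, adjusted p = 0.38). Of 12 tested adhesion genes none passed and 1, Cd44, had unadjusted p under 0.05 (0.59 ± 0.26, adjusted p = 0.203). Icam1 and Vcam1 had log2 fold changes of 0.59 and 0.08 (adjusted p = 0.268 and 0.919), and both were lowest in replicate 9 among the d36 libraries.

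In the arterial and Notch list 1 of 19 genes rose and 1 fell (median -0.20, and -0.10 without d36 replicate 9). Dkk2, a secreted modulator of Wnt signals, was at 0.434, 1.05, 0.118 and 0.261 RPKM at d22 and 9.9, 8.41, 8.7 and 0.83 at d36, so that replicate 9 lay within d22 (log2 fold change 2.19 ± 0.50, limma, adjusted p = 0.0477). Ltbp4, which holds latent TGF-beta in the matrix of elastic fibres, was at 15.8, 15.6, 8.71 and 12.6 RPKM at d22 and 6.72, 6.52, 6.83 and 5.53 at d36, without overlap (-0.91 ± 0.18, adjusted p = 0.0329). The Notch ligand Dll4 and the arterial transcription factor Sox17 had log2 fold changes of 0.16 and 0.01 (adjusted p = 0.34 and 0.982). Adjusted p reached 0.139 for Dkk2 and 0.11 for Ltbp4 when a library was left out.

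Of 22 tested genes of angiogenesis and tip cells 1, Adm, rose and none fell (median 0.14), and the same gene was the riser of 19 vasoactive genes. Pgf, a ligand of the receptor Flt1, was at 3.05, 7.02, 4.58 and 0.662 RPKM at d36 and 0.751 ± 0.475 at d22 (1.29, limma, adjusted p = 0.102). The tip cell genes Esm1 and Angpt2 had log2 fold changes of 0.49 and 0.48 (adjusted p = 0.185 and 0.231), and Kdr, the main receptor of VEGF, of 0.06 (adjusted p = 0.821). None of 4 tested lymphatic genes passed, none had unadjusted p under 0.05, and the smallest p was that of Fgl2 (-0.46 ± 0.26, adjusted p = 0.304).

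**Figure D4:**
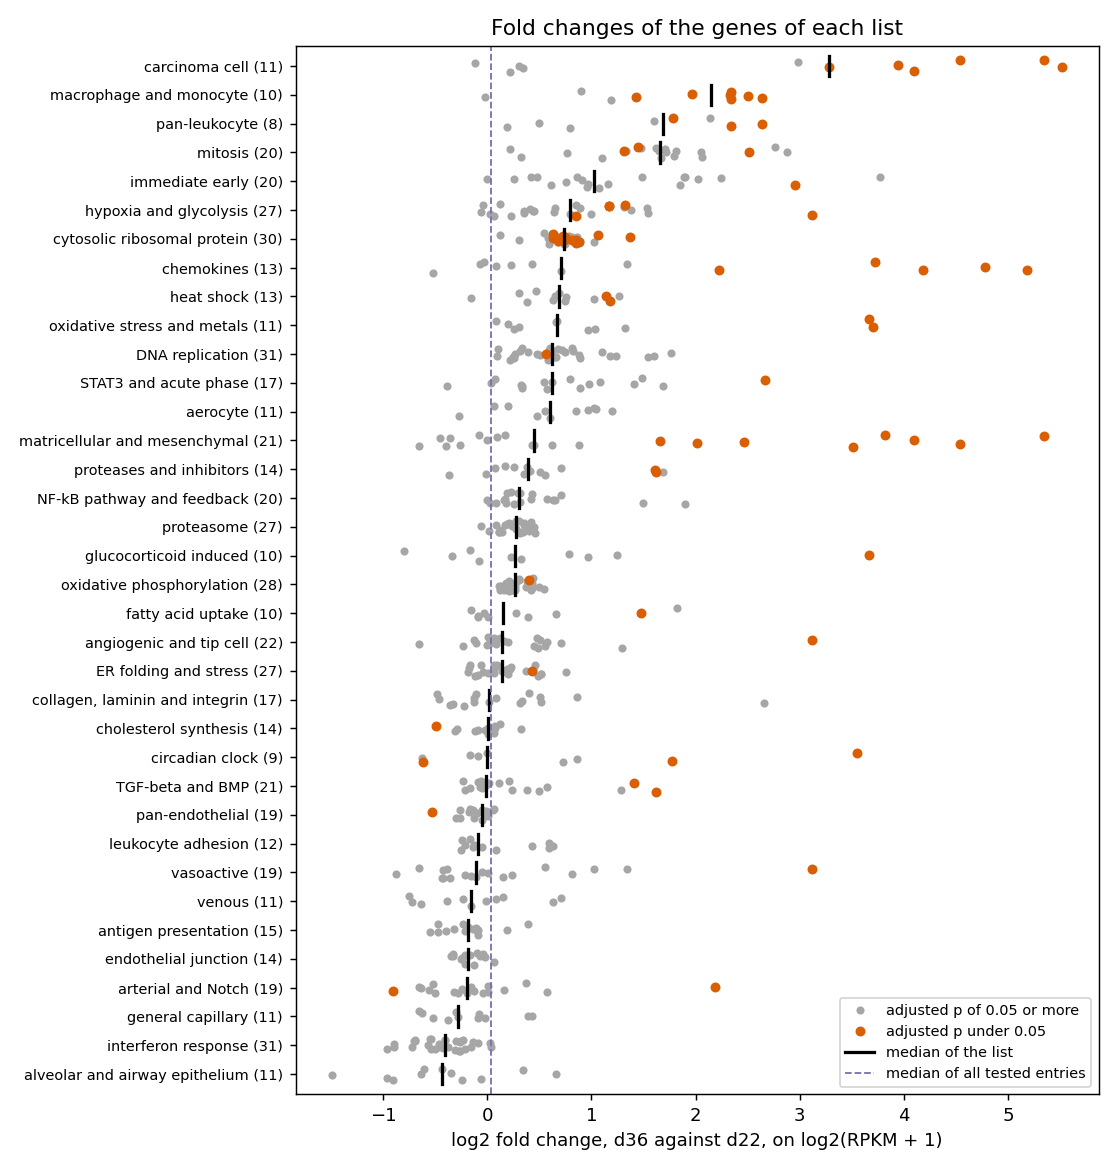
Log2 fold changes, d36 against d22, of the tested genes of each list with at least 8 of them, with 1 point per gene, orange where adjusted p was under 0.05, and a bar at the list's median. The dashed line is the median of all tested entries (0.04); carcinoma-associated and macrophage lists lie farthest right, at medians of 3.28 and 2.15 that include genes tested only through d36.

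Interferon-induced genes and genes of antigen presentation gave no call. Of 31 tested interferon genes none passed and 29 had negative values. Of these 31, 6 had unadjusted p under 0.05, downward, beside 7.83% of all tested entries. The median log2 fold change was -0.41, and -0.14 without d36 replicate 7. The list mean on the log2(RPKM + 1) scale was 4.38, 4.36, 4.59 and 3.97 at d22 and 4.15, 3.11, 4.22 and 4.12 at d36, so replicate 7 was the low library and the other 3 lay within the d22 range. Irf7, the amplifier of type I interferon, was at 37.7, 38.1, 41.3 and 24.7 RPKM at d22 and 26.9, 14.0, 27.4 and 19.5 at d36 (-0.69 ± 0.23, limma, adjusted p = 0.109). The list of antigen presentation had a median of -0.19, and -0.03 without d36 replicate 7, and its mean at d36 (6.85, 6.44, 7.39 and 7.44) was below the d22 libraries in replicate 7 alone. Of its 15 tested genes none passed and 1 had unadjusted p under 0.05: Tapbp, which loads peptides on MHC class I, at 284 ± 18.7 RPKM at d22 and 208 ± 40.1 at d36 (-0.47 ± 0.15, adjusted p = 0.0987). The class II genes Cd74 and H2-Ab1 were lower in replicates 1 and 7 of d36 than in replicates 8 and 9, Cd74 at 464, 214, 1410 and 805 RPKM.

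The clock repressors Nr1d1 and Nr1d2 (REV-ERB alpha and beta), heme-sensing nuclear receptors whose RNA cycles over the day, rose with the smallest adjusted p of the named genes after Chi3l3. Nr1d1 was at 3.36, 3.79, 2.57 and 3.89 RPKM at d22 and 35.9, 26.7, 66.7 and 97.3 at d36 (log2 fold change 3.55 ± 0.34, limma, adjusted p = 0.00354, and at most 0.0257 with any library left out). Every d36 library exceeded every d22 library, and replicate 9 was the highest. Nr1d2 was at 0.379, 0.406, 0.249 and 0.491 RPKM at d22 and 3.67, 4.61, 4.5 and 2.4 at d36 (1.77 ± 0.16, adjusted p = 0.00341, and at most 0.0243). The genes lie at chr11:98767932-98775377 and chr14:18204056-18239106 (mm10).

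Earlier time points put these levels in place, as a description. Nr1d1 averaged 35.1 ± 18.9 RPKM at d0 and 110 ± 46.1 at d15, so d22, at 3.40 ± 0.602, was the low time point and d36, at 56.6 ± 32.0, lay between d0 and d15. Nr1d2 averaged 1.54 ± 0.744 RPKM at d0 and 5.73 ± 2.59 at d15. Gm129, the clock repressor now called Ciart, fell from 20.8, 26.1, 22.2 and 24.3 RPKM to 13.7, 16.2, 15.5 and 13.7, without overlap (-0.62 ± 0.11, limma, adjusted p = 0.0307, and at most 0.109 with a library left out). These 3 were the calls among 9 tested clock genes. Nr1d2 was tested only through d36, and of the 8 others 1 rose and 1 fell, with a median log2 fold change of -0.04. The core activator Arntl, a target of REV-ERB repression, had a log2 fold change of -0.63 (adjusted p = 0.114), the output factor Dbp of 0.73 (adjusted p = 0.201) and Clock of 0.00 (adjusted p = 0.99).

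Cyp1a1 had the largest fall. It codes for a cytochrome P450 that oxidises aromatic compounds and is the classical target of the aryl hydrocarbon receptor, which binds the core GCGTG. Its levels were 68.9, 59.0, 41.9 and 47.6 RPKM at d22 and 15.7, 7.29, 7.85 and 37.1 at d36. Replicate 9 lay just under the lowest d22 library and the other 3 were well below (log2 fold change -1.89 ± 0.42, limma, adjusted p = 0.045, and at most 0.131 with a library left out). In the fit of all 16 libraries it missed the threshold (adjusted p = 0.25). At d0 and d15 it averaged 567 ± 992 and 132 ± 218 RPKM, where the SD exceeded the mean. The gene spans chr9:57687928-57703824 (mm10). The 250 bases before 1 of its start sites in RefSeq (GRCm38.p6, chr9:57697363-57697612, plus strand) are shown since this gene is the readout of the receptor. They hold 1 match to GCGTG on either strand, in capitals, 54 bases before the start, as do 9235 of 32817 promoter windows (28.1%) at some position.
Cyp1a1: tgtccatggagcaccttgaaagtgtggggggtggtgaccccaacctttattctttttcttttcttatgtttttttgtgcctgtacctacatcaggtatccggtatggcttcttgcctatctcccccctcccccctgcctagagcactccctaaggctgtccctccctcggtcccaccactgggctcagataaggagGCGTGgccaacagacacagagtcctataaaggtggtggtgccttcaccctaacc

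The other large falls were moderate, and replicate 9 of d36 shared them. Nox1, a subunit of a superoxide-making NADPH oxidase, was at 4.99, 5.75, 4.65 and 3.93 RPKM at d22 and 3.27, 0.981, 2.08 and 1.84 at d36 (log2 fold change -0.98 ± 0.21, limma, adjusted p = 0.0423). Spon2, a secreted matrix protein of innate immunity, was at 1.08, 3.3, 2.5 and 2.45 RPKM at d22 and 0.669, 0.808, 0.6 and 0.669 at d36 (-0.94 ± 0.20, adjusted p = 0.0387). Both genes were lower in all d36 libraries, replicate 9 included. Aldh1a1, which makes retinoic acid, was at 3.46, 3.54, 3.35 and 3.16 RPKM at d22 and 1.83, 1.61, 1.31 and 1.88 at d36 (-0.73 ± 0.12, adjusted p = 0.0264), and the glutathione transferase Gstt1 fell by 0.71 ± 0.14 on this scale (adjusted p = 0.0338). At d0 the mean was 2.37 ± 0.139 RPKM for Nox1, 1.61 ± 0.355 for Spon2, 1.68 ± 0.115 for Aldh1a1 and 4.49 ± 1.13 for Gstt1. In the same order d36 averaged 2.04, 0.687, 1.66 and 3.86 RPKM. Spon2 at d36 thus lay below d0, and the others lay near d0 with d22 above it.

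The remaining 7 of the 12 largest falls were Ltbp4, described above, Fam124b (-0.94), Leng8 (-0.87) and the poorly described genes Gm10404 (-0.97), E030026E10Rik (-0.94), 8030494B02Rik (-0.89) and D930048N14Rik (-0.76). Their adjusted p ran from 0.0307 for Gm10404 and D930048N14Rik to 0.0471 for Leng8. For Fam124b the levels were 19.7, 16.9, 19.8 and 14.5 RPKM at d22 and 10.9, 6.56, 11.1 and 7.14 at d36, and replicate 9 lay among the others. Ltbp4 and Leng8 averaged 7.22 and 10.3 RPKM at d0, 13.2 and 19.4 at d22 and 6.4 and 9.76 at d36. For Fam124b (15.3 RPKM at d0, 8.91 at d36) and the poorly described genes the mean of d36 was below that of d0. With a library left out, the largest adjusted p of the 12 falls was 0.105 to 0.139. Of the 65 falls 29 were entries listed by symbol, 31 had AK identifiers and 5 Ensembl transcript identifiers, against 299, 11 and 64 of the 374 rises. Among all 13622 tested entries 10427 were listed by symbol, so the falls held a smaller share of symbols than the tested entries.

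None of 11 tested genes of lung epithelium passed and 1 had unadjusted p under 0.05, downward. The median log2 fold change was -0.44, and -0.76 without d22 replicate 1, -0.20 without d22 replicate 6 and -0.22 without d36 replicate 7. The list mean on the log2(RPKM + 1) scale was 3.67, 3.34, 3.93 and 4.19 at d36 beside 3.64 to 4.86 at d22, so replicate 7 alone lay below d22. The gene with the smallest p was Scgb1a1, the club cell secretoglobin, at 985, 546, 764 and 905 RPKM at d22 and 275, 139, 231 and 665 at d36 (-1.49 ± 0.40, limma, adjusted p = 0.0671, and 0.000845 without replicate 9). Replicate 9 was within the d22 range and the other 3 below it. The epithelial list, with Scgb1a1 in it, summed to 1151 to 1680 RPKM at d22 and 566, 370, 684 and 1158 at d36, lowest in replicates 1 and 7, where the carcinoma-associated list was highest. Whether these levels were linked was not tested.

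Lists of further cell types gave 1 call. Pln, the calcium pump regulator of heart muscle and of the muscular sleeve of pulmonary veins, was at 2.42, 2.18, 2.18 and 2.43 RPKM at d22 and 1.21, 1.1, 1.27 and 1.75 at d36 and was the 1 faller of 6 cardiomyocyte genes (log2 fold change -0.51 ± 0.12, limma, adjusted p = 0.0492, and at most 0.14 with a library left out). None of 7 pericyte and smooth muscle genes, 2 platelet genes, 2 erythroid genes, 1 T and NK cell gene or 1 mesothelial gene passed, and none of them had unadjusted p under 0.05. The integrin chain Itgb3 of platelets had a log2 fold change of 0.40 ± 0.20 (adjusted p = 0.247), Cd2 of T and NK cells of 0.36 ± 0.19 (adjusted p = 0.273) and the mesothelial keratin Krt19 of 0.34 ± 0.24 (adjusted p = 0.403). Hba-a1, the haemoglobin alpha chain, was at 10.4 RPKM in d36 replicate 9 and 1.87 to 4.56 in the other 3, beside 2.56 ± 2.17 at d22 (0.61 ± 0.48, adjusted p = 0.457).

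**Figure D5:**
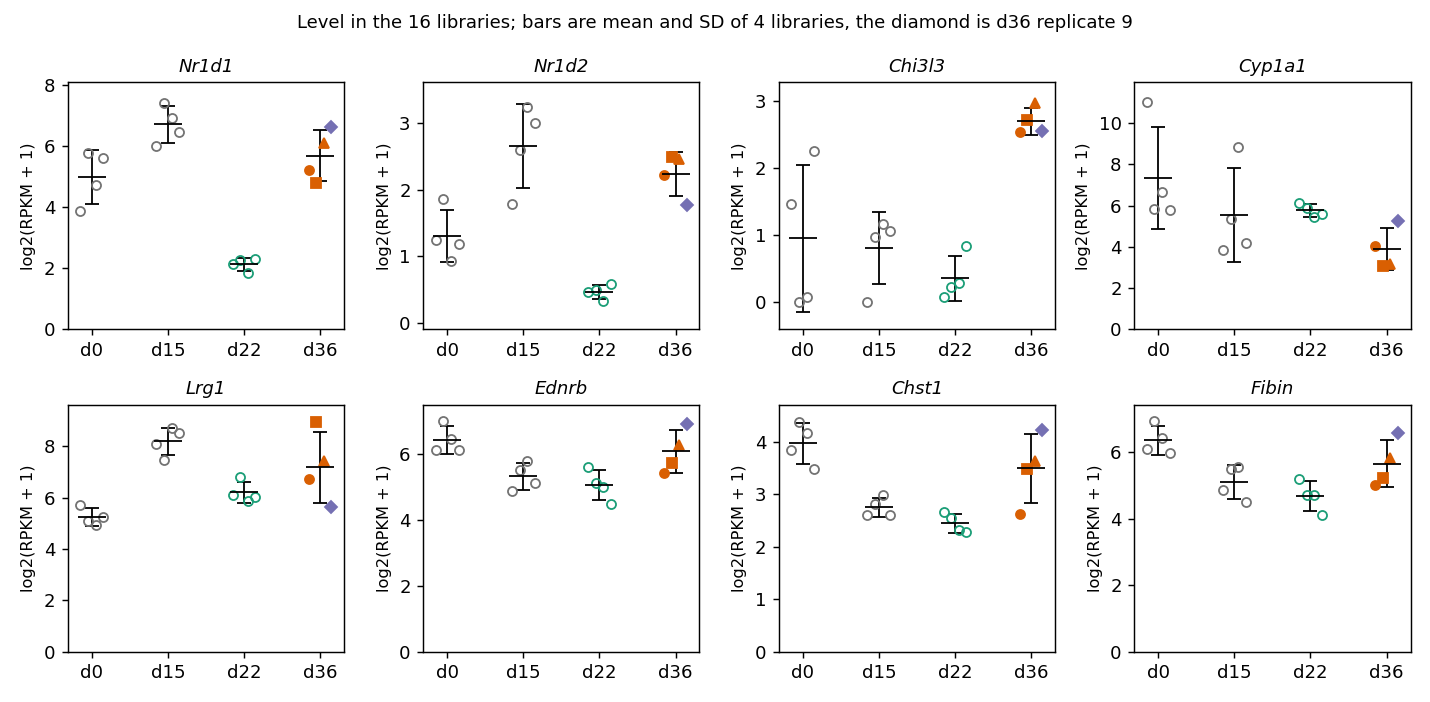
Level on the log2(RPKM + 1) scale of 8 genes in the 4 libraries of each time point, with bars for mean and SD. Nr1d1 and Nr1d2 are lowest at d22, Chi3l3 is highest at d36, Lrg1 has its highest mean at d15, and the aerocyte genes Ednrb, Chst1 and Fibin are highest in d36 replicate 9 (diamond) among the d22 and d36 libraries.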

How the data were processed

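RNA of sorted lung endothelial cells was isolated with PicoPure and 10 ng was amplified with a SMARTer Ultra Low kit, per the labels' protocols. The submitters' processing notes name STAR, DESeq2 and the build mm10; their settings are not given in the sources used here. The authors deposited 1 table with RPKM per library for 17715 entries, of which 3443 carry AK identifiers, 1461 Ensembl transcript identifiers and 17 dates in place of names. Per the file headers it also holds the authors' log2 fold changes and adjusted p-values for d15, d22 and d36, with no comparison group named, and these were not used. Raw counts were not analysed here, so no count model was fitted.

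RPKM values were put on the log2(RPKM + 1) scale, on which fold changes of low genes are understated. The 13622 entries that reached 1 RPKM in 4 or more of the 8 libraries were tested for d36 against d22 with limma 3.58.1 in R 4.3.3, with an intensity trend, two-sided, Benjamini-Hochberg adjustment and a threshold of 0.05. The labels assign 4 libraries to each group, and P-values measure the spread between these. Approximate depth was derived from the RPKM step of 1 read in 48 genes with a single transcript and limits the precision of low values. The fit was also run on simulated data with independent genes and the same spread in both groups. That setting does not cover the wider spread of d36 or a library that stands apart.

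Genes were named by a rule: among entries with a symbol, a group mean of 2 RPKM or more, a call and no overlap, the 12 largest rises and 12 largest falls; up to 4 called members of each list by smallest p, or else the member with the smallest p; and Lrg1. Some results of this rule are not reported here. Other list members named were chosen after their values were seen. The comparison and the lists were chosen with earlier results of these data known. Alternatives were other pseudocounts, filters, scalings, weights and fits, a correction for transcript length and GC content, and leaving out each library. Promoter windows and gene positions are from RefSeq (GRCm38.p6, the build of mm10), matched by symbol.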

Additional observations from a re-analysis of the deposited data

Results flagged for a closer look

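Among the 87 genes named by the rule, each looked at within d22 and within d36 (174 groups of 4 libraries), 15 groups had 1 library far from the other 3 by Dixon's criterion, which chance meets in about 1 of 20 groups. Replicate 9 of d36 was that library in 13 of them. It was the lowest of d36 for Lgals1 (31.1 RPKM), Pla2g7 (6.38), Ccl7 (2.62), Serpinf1 (3.01), Pcolce (3.48), Hmga1 (4.72), Dkk2 (0.83), Adm (2.09), Bnip3 (18.4), Tpi1 (37.4), Slc27a1 (1.19) and Tgfb3 (1.15). It was the highest for Mllt4 (1.22 RPKM). Within d22, replicate 1 was the highest for Serpinf1 (0.887 RPKM) and replicate 5 the lowest for Hmga1 (1.12 RPKM). The cause was not tested.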

How the results depend on the processing

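The counts of 374 rises and 65 falls, and of 137 and 3 at least 2-fold, depended on several settings. Without the filter on low values 231 entries rose and 27 fell. One fit of all 16 libraries gave 1249 rises, 439 falls, 302 rises of at least 2-fold and 7 such falls, and array weights gave 2446, 1278, 393 and 20. With equal medians there were 236 rises, 169 falls and 14 falls of at least 2-fold, and with quantile normalization 199 falls, 15 of them at least 2-fold. With the trend of length and GC content removed, which 93.7% of tested entries with a symbol allowed, 137 rose and 69 fell, 78 and 7 of them at least 2-fold. On the same entries with the trend kept, an alternative chosen after seeing the data, 292 rose and 25 fell, 1 at least 2-fold. Pseudocounts of 0.1 and 0.5 gave 21 and 9 falls of at least 2-fold. Leaving out 1 library gave 5 to 2045 rises, 0 to 1131 falls, 5 to 482 rises of at least 2-fold and 0 to 35 such falls, in each case with the highest value without d36 replicate 9. The log2 fold change of Ltf, which did not pass, was 0.04 with array weights. Of the 65 called genes named by the rule, 62 passed in the fit of 16 libraries (not Cyp1a1, Pfkfb3 and Cox6c), 60 with equal medians, 59 with quantile normalization and 41 without the filter. The medians of 42 gene lists moved by more than the spread between libraries in 9 lists with the length and GC trend removed, 7 with quantile normalization, 4 each with equal medians and array weights, 2 with a pseudocount of 0.1 and at most 2 with a library left out. The cause of these differences was not tested, except that fewer or more entries were tested where the filter or the length correction changed them. No paired analysis was possible because the groups share only 1 replicate number. Depth limits values of low RPKM, and raw counts were not analysed here.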
